A study of Callithrix jacchus with 11 samples.

Results

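Transcript levels in the hippocampus were compared between aged and young marmosets that had been raised by their parents. The comparison used 5 of the 11 samples of the series, 3 parent-reared aged animals (PRA) and 2 parent-reared young animals (PRY), chosen by the group code in the sample titles. A probe was kept if all 3 PRA arrays or both PRY arrays flagged its signal as well above background, which left 41349 of the 54641 transcripts with a usable spot on all 11 arrays. All 11 animals of the series were male common marmosets (Callithrix jacchus). The young animals were 13 to 19 months old and the aged animals 88 to 164 months old. Both parent-reared groups had stayed with their parents for the first 3 months and lived with peers of their own age afterwards. The 6 other samples came from young and aged animals raised by human hand for the same 3 months (HRY and HRA, 3 animals each). The groups were formed by age class, so each holds animals of a range of ages, and no agent or genetic change was used.

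The hippocampus is the brain region that forms new memories of events and places, and it also restrains the stress hormone axis through its receptors for glucocorticoids. In mammals it is one of the few brain regions in which neurons are still formed after birth, and that production declines with age. Ageing of the primate hippocampus is also known for changes in myelin, in synapses and in the activity of glial cells. The common marmoset is a small monkey that lives in family groups and matures early, which makes it a frequent model for primate development and ageing. The arrays name each probe by the Ensembl identifier of a marmoset transcript, and no gene symbol was paired with any of the 54670 identifiers (0 found in the tables used for names). The level of each of those processes, and the markers that would check the tissue label, were therefore not analysed here, and transcripts are given by identifier. In whole tissue, a lower share of a cell type and less RNA per cell cannot be told apart.

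Each animal was measured on 1 array with a single dye. Levels are log2 intensities after the 75th percentile of the array was subtracted and the level 0 is thus that percentile. PRY1 was hybridized on one slide together with HRY1 and HRY2, and PRY2 shared the other slide with the 3 PRA arrays and all other hand-reared arrays. Before scaling, the 75th percentile was an intensity of 2607 in PRY1, 1460 in PRY2 and 1681 to 1737 in the PRA animals. PRY2 had the lowest RNA integrity number of the 11 samples in the study's records. The numbers of transcripts well above background were close, between 41432 and 41938 per array. Each young animal thus stood apart from the aged animals in technical respects. PRY1 differed by its slide, its scan and a median background of 39, against 22 to 24.5 in PRA. PRY2 differed by its RNA integrity and had the lowest 75th percentile of all arrays. If the study's records follow the order of the samples, PRY1 also had a slightly lower RNA integrity number than every PRA animal. The part of these in the differences below was not tested apart from the values given beside them.

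The aged animals resembled each other more than either young animal resembled them. Of the 41349 transcripts, 3.24% to 5.28% lay more than 2-fold apart in a pair of PRA arrays. Between PRY2 and a PRA array, all on the same slide, the share was 9.41% to 13.0%. Between PRY1 and a PRA array, on different slides, it was 14.3% to 18.7%. The 2 young animals differed from each other in 15.6% of the transcripts, a share larger than that between PRY2 and any aged animal. Spots of the same probe on 1 array differed far less than animals did. For 39 tested transcripts with 11 spots each, the median SD between spots was 0.07 on the log2 scale, against a median SD between PRA animals of 0.17.

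**Figure D1:**
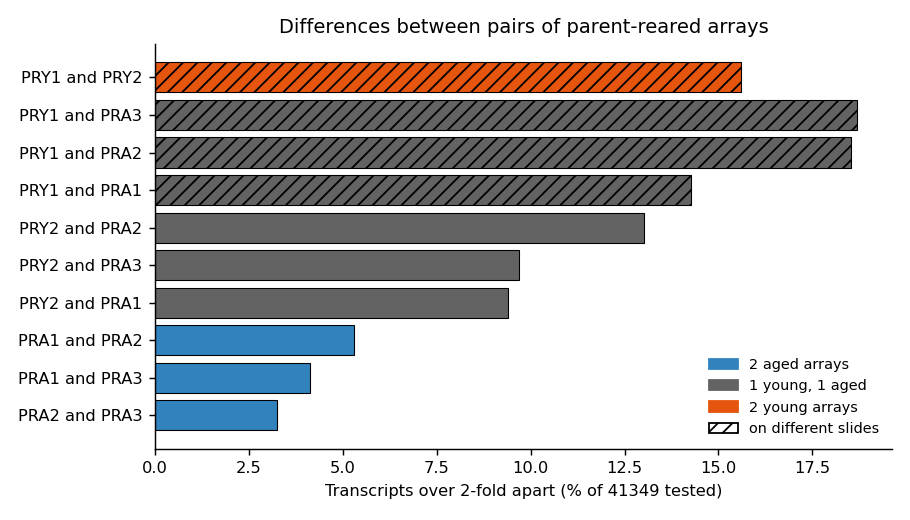
Share of the 41349 tested transcripts that lay more than 2-fold apart in each pair of the 5 parent-reared arrays, in percent, with bars coloured by the stages of the pair and hatched where the arrays were on different slides. The 3 pairs of aged animals had the lowest shares (3.24% to 5.28%), and the pair of young animals (15.6%) exceeded all 3 pairs of PRY2 with an aged animal.

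To find transcripts whose level differed with stage, PRA was compared with PRY in limma, with 1 estimate of spread from all 11 arrays. The study's criteria were used, a change of more than 2-fold together with a p under 0.05. The study does not state whether its p was adjusted, and the p before adjustment was used here. In PRA, 750 transcripts (1.81% of those tested) were higher and 1435 (3.47%) were lower, so that 34.3% of the 2185 transcripts past the criteria (5.28% of those tested) were higher. Of these, 563 higher and 1105 lower ones (76.3% of the calls) were well above background on all 5 arrays, as were 39284 of all tested transcripts. No transcript had a Benjamini-Hochberg adjusted p under 0.05 in limma (0, or 0% of those tested), and the smallest adjusted p was 0.175, which 2200 transcripts shared. An unadjusted p under 0.05 was found for 9463 transcripts (22.9%), of which 3657 were higher and 5806 lower in PRA. Among all tested transcripts the median difference was 0.01 and the median absolute difference 0.33 on the log2 scale.

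The split between higher and lower transcripts moved with the normalization and the terms of the model. With quantile normalization, 919 transcripts were higher and 1060 lower (46.4% of calls higher), with slide as a block 731 and 871 (45.6%), and with RNA integrity as a covariate 1522 and 1311 (53.7%). The counts also depended on single animals. Without PRY2, when PRY1 alone stood for the young animals, 2300 transcripts were higher and 3062 lower and 2730 had an adjusted p under 0.05 in limma. Without PRY1, when all arrays of the comparison lay on 1 slide, 1015 were higher and 1509 lower and none had an adjusted p under 0.05 (0), and of the 750 and 1435 transcripts 281 and 649 were still past the criteria. Leaving out PRA1 gave 2324 lower transcripts and leaving out PRA2 gave 950, and an unadjusted p under 0.05 was found for 5223 transcripts without PRA2 and 5673 without PRA3.

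The groups did not overlap for 688 of the 750 higher transcripts (91.7%) and 1361 of the 1435 lower ones (94.8%). Without overlap were also 41.6% of all tested transcripts. The median difference was 1.24 on the log2 scale for the higher and -1.22 for the lower transcripts. A fold change above 4 was found for 74 higher and 90 lower transcripts, and one above 8 for 14 and 6, with transcripts that were dim in the lower group counted at their measured values. Of the higher transcripts, 259 differed more than 2-fold from both young animals, 382 from PRY1 alone and 109 from PRY2 alone. Of the lower transcripts, 605 differed more than 2-fold from both, 560 from PRY1 alone and 270 from PRY2 alone. In both directions the young animal on the other slide was thus more often the only one past 2-fold. In 111 transcripts every PRA animal was more than 2-fold above every PRY animal, and in 202 every PRA animal was more than 2-fold below, of which 102 and 195 were past the criteria.

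The transcripts past the criteria were most frequent at low levels. Sorted by mean level over the 5 arrays into 4 groups of equal size, the lowest group held 337 higher and 762 lower transcripts (3.26% and 7.37%). The highest group held 62 higher and 144 lower transcripts (0.600% and 1.39%). The spread moved with the level too, with a median SD between PRA animals of 0.25 in the lowest and 0.13 in the highest group.

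Transcripts that were lower in PRA were concentrated in 2 runs of consecutive Ensembl identifiers, and transcripts that were higher were nearly absent from them. The runs were found after the values were seen, so the counts are a description without a test. The first run reached from ENSCJAT00000044451.1 to ENSCJAT00000052096.1 and held 3566 tested transcripts, 8.62% of all. In it, 368 transcripts were lower (10.3%) and 9 higher (0.252%) in PRA. The second run reached from ENSCJAT00000063853.1 to ENSCJAT00000066405.1, the highest number tested, and held 1914 transcripts, 4.63% of all. There, 236 were lower (12.3%) and 6 higher (0.313%). The first run held 25.6% and the second 16.4% of all lower calls. Among the 35869 remaining transcripts, 831 were lower and 735 higher (2.32% and 2.05%).

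The difference in the runs was a shift of most of their transcripts and not of a few. Of the transcripts of the first run 88.0% had a lower mean in PRA, and of the second run 89.5%, against 42.9% of the remaining transcripts. The median difference was -0.56 on the log2 scale in the first run (quartiles -0.78 and -0.20) and -0.69 in the second (quartiles -1.03 and -0.34), against 0.07 outside the runs. In bins of 500 consecutive numbers the median lay between -0.62 and -0.47 in all 15 bins inside the first run and between -0.73 and -0.65 in all 5 inside the second. In the 110 bins wholly outside them it lay between -0.03 and 0.17. All 3 PRA values lay below both PRY values for 66.3% and 65.0% of the transcripts of the 2 runs and for 16.3% of the others.

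The animals of one stage did not share a level in these runs. With each transcript centred on its mean over the 11 arrays, the median of the first run was 0.26 in PRY1, 0.14 in PRY2, -0.14 in PRA1, -0.40 in PRA2 and -0.41 in PRA3. In the second run it was 0.36 in PRY1, 0.20 in PRY2, -0.05 in PRA1, -0.49 in PRA2 and -0.48 in PRA3. PRA1 thus lay closer to PRY2 than to the other aged animals in the second run. In the hand-reared animals, whose arrays entered the calls only through the estimate of spread, both stages held high and low values. The median of the first run was 0.15, 0.21 and -0.26 in HRY1, HRY2 and HRY3 and 0.22, 0.32 and -0.15 in HRA1, HRA2 and HRA3, and that of the second run was 0.23, 0.29, -0.35, 0.15, 0.27 and -0.26 in the same order.

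The level of the runs is set beside slide and RNA integrity here after the values were seen, and the part of either was not tested. The order by RNA integrity is described for the second slide only. The 3 arrays of the first slide (PRY1, HRY1 and HRY2) were all above 0, and on the second slide the samples above 0 were PRY2, HRA1 and HRA2, the 3 with the lowest RNA integrity numbers of the series. On the second slide alone the median difference between PRA and PRY2 was -0.46 in the first and -0.53 in the second run. It was -0.37 and -0.42 with slide as a block, and -0.45 and -0.60 with RNA integrity as a covariate. The median difference between HRA and HRY was 0.11 and 0.04. With the 2 runs left out, which was chosen after seeing the data, 731 transcripts were higher and 828 lower, so that 46.9% of the calls were higher. With the 75th percentile taken over the other transcripts, also chosen after seeing the data, 542 were higher and 1972 lower (21.6% of calls higher), and the median of all transcripts moved to -0.06. What the transcripts of a run have in common besides their numbers was not analysed here.

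**Figure D2:**
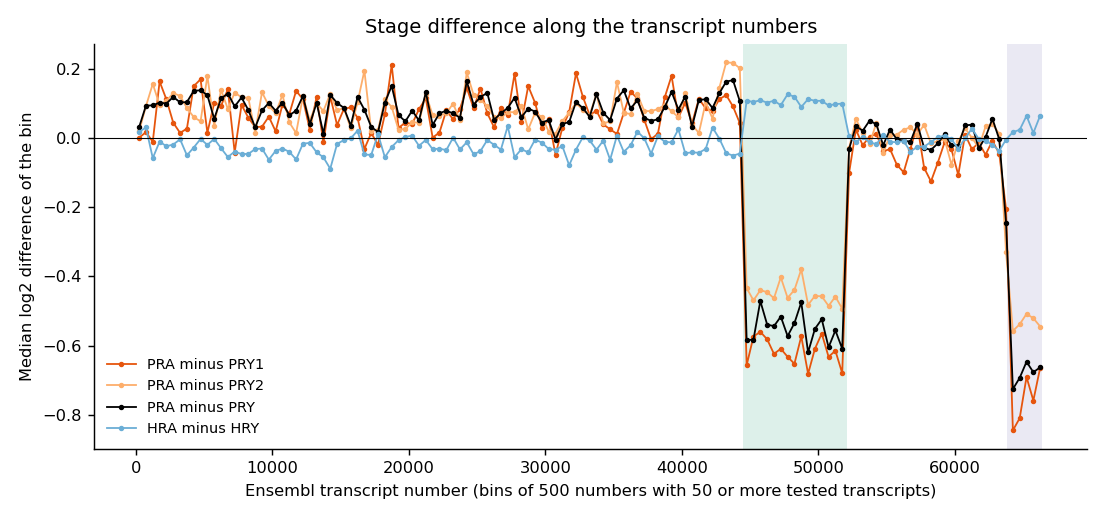
Median log2 difference of tested transcripts in bins of 500 consecutive Ensembl transcript numbers (bins with at least 50 tested transcripts), for PRA minus PRY, for the PRA mean minus each young animal, and for HRA minus HRY, with the 2 runs shaded. The parent-reared differences drop to between -0.62 and -0.47 in the first run and to between -0.73 and -0.65 in the second against both young animals together, while the medians of the 110 bins wholly outside the runs lie between -0.03 and 0.17 and the bins that straddle an edge of a run are not in these ranges.

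**Figure D3:**
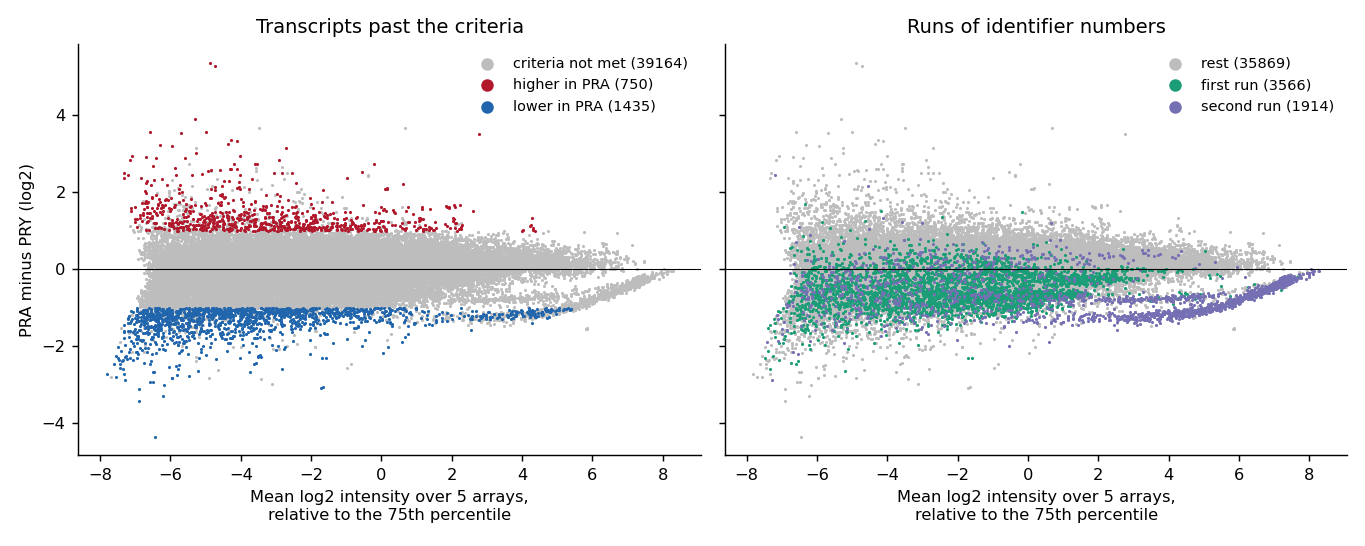
Difference between PRA and PRY on the log2 scale against the mean log2 intensity over the 5 arrays, relative to the 75th percentile, with 1 point for each of the 41349 tested transcripts. On the left the 750 higher and 1435 lower transcripts are coloured, and on the right the 3566 and 1914 transcripts of the 2 identifier runs, which lie mostly below 0.

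The largest difference among transcripts measured on all 5 arrays without overlap was that of ENSCJAT00000031768.2. Its level was 1.80 in PRY1 and -0.50 in PRY2, and 4.46, 5.0 and 3.08 in the PRA animals. All 3 aged animals were above both young animals, with a PRA mean of 4.18 ± 0.99 (SD, n = 3) and a PRY mean of 0.65 ± 1.63 (SD, n = 2). The log2 difference was 3.53 with a standard error of 1.17 (limma, adjusted p = 0.177). In the hand-reared animals the young were high as well (3.80, 4.48 and 2.77), and of the aged only HRA3 was (0.24, 0.40 and 4.19). Without PRY2 the log2 difference was 2.38 and no longer past the criteria. With RNA integrity as a covariate it was 1.04, and the call was also lost with array weights and in the methods' t-test.

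ENSCJAT00000029105.2 had the second largest difference, and it was also higher in the aged animals of the other rearing. Its level was -3.85 and -5.36 in the PRY animals and -1.78, -1.02 and -1.55 in the PRA animals. The log2 difference was 3.15 with a standard error of 0.91 (limma, adjusted p = 0.175). In HRY animals it was -6.97, -5.39 and -3.03 and in HRA animals -0.66, -0.84 and -1.46, again without overlap. Without PRY2 the parent-reared difference was 2.40 and was not past the criteria.

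ENSCJAT00000012216.2 and ENSCJAT00000012224.1 followed the same course over all 11 arrays. With each centred on its own mean, their values differed by at most 0.14 on any array, so they are not taken as independent observations. ENSCJAT00000012216.2 was at -5.58 and -4.80 in the PRY animals and at -1.68, -2.55 and -3.11 in the PRA animals. Its log2 difference was 2.74 with a standard error of 1.07, as was that of ENSCJAT00000012224.1 with a standard error of 1.08 (limma, adjusted p = 0.189 and 0.190). Without PRY1 the differences were 2.35 and 2.47, without PRY2 3.14 and 3.01 and without PRA1 2.36 and 2.32, all with a p above the criterion, as was the difference of 2.79 of ENSCJAT00000012216.2 without PRA2. Both calls were also lost with RNA integrity as a covariate (2.02 and 1.94), with array weights and with normexp background correction. In hand-reared animals the order was opposite. ENSCJAT00000012216.2 was at 2.47, -0.40 and -1.61 in HRY and at -5.16, -5.09 and -2.90 in HRA, so that the difference between stages changed its sign with rearing (interaction 7.28 on the log2 scale, limma, adjusted p = 0.205).

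The 4 other largest differences in this direction belonged to ENSCJAT00000003087.2, ENSCJAT00000029135.3, ENSCJAT00000027673.1 and ENSCJAT00000042564.2. Their log2 differences were 2.74, 2.73, 2.61 and 2.60, with standard errors of 0.91 to 1.00. ENSCJAT00000042564.2 had the closest PRA values, at -3.20, -3.54 and -3.07, against -5.51 and -6.23 in the PRY animals. ENSCJAT00000027673.1 had the widest, at -3.18, -1.60 and -4.43, against -5.40 and -5.95. The criteria were missed by ENSCJAT00000003087.2 without PRY1 (2.36) or PRA3 (2.30), and by ENSCJAT00000029135.3 without PRY1 (1.95). They were missed by ENSCJAT00000027673.1 without PRY1 (2.88), PRY2 (2.33) or PRA2 (1.87), and by ENSCJAT00000042564.2 without PRY2 (2.24). All 4 calls were lost with RNA integrity as a covariate, at log2 differences of 1.88, 2.09, 1.33 and 1.63 in the order above. With array weights the calls of ENSCJAT00000029135.3, ENSCJAT00000027673.1 and ENSCJAT00000042564.2 were lost, and in the methods' t-test those of ENSCJAT00000029135.3 and ENSCJAT00000027673.1.

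**Figure D4:**
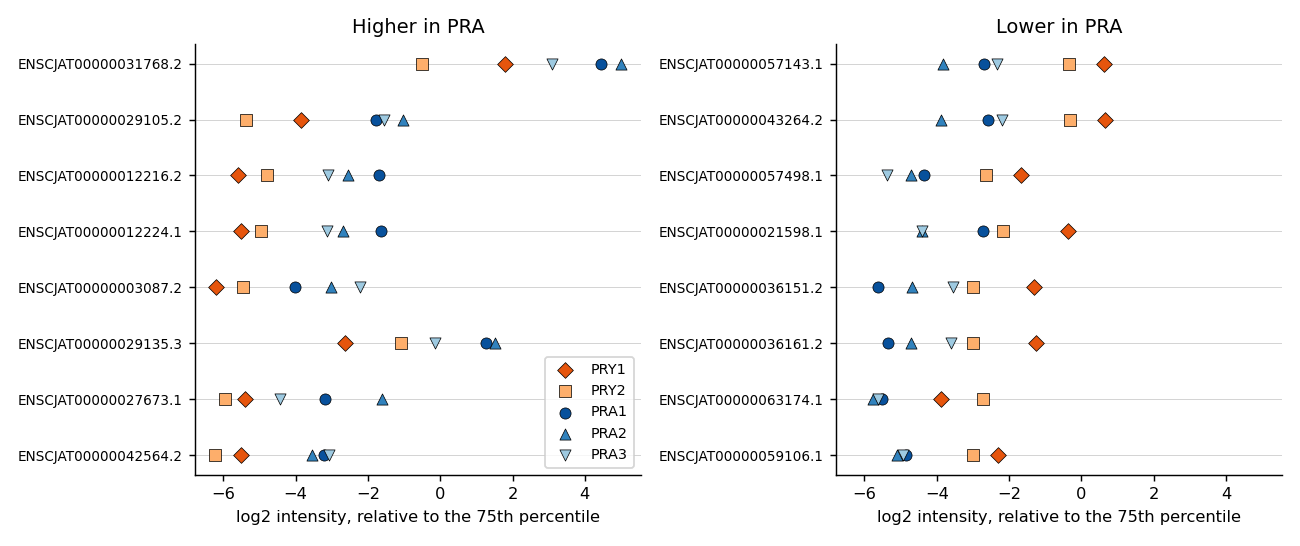
Log2 intensity relative to the 75th percentile in each of the 5 parent-reared animals for the 8 transcripts with the largest difference in each direction among those past the criteria, measured on all 5 arrays and without overlap. Each row is 1 transcript and each point 1 animal, with young animals in orange and aged animals in blue, and in each row the aged points lie all on one side of the young points.

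The largest differences in the other direction were those of ENSCJAT00000057143.1 and ENSCJAT00000043264.2. ENSCJAT00000057143.1 was at 0.63 and -0.34 in the PRY animals and at -2.68, -3.82 and -2.33 in the PRA animals. ENSCJAT00000043264.2 was at 0.66 and -0.31 in PRY and at -2.59, -3.88 and -2.19 in PRA. All 3 aged animals were below both young animals, and the log2 differences were -3.09 with a standard error of 0.66 and -3.06 with a standard error of 0.69 (limma, adjusted p = 0.175 for both). The centred values of this pair differed by at most 0.14 on any array. Only the PRY animals stood out, since all 6 hand-reared animals lay between -4.35 and -1.86 for ENSCJAT00000057143.1. Both stayed past the criteria without any single parent-reared animal, with log2 differences of -3.57 to -2.57.

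ENSCJAT00000059106.1 likewise kept its call without any single parent-reared animal. It was at -2.29 and -3.00 in the PRY animals and at -4.84, -5.11 and -4.93 in the PRA animals, with a log2 difference of -2.31 and a standard error of 0.58 (limma, adjusted p = 0.175). ENSCJAT00000057498.1 (-2.66), ENSCJAT00000021598.1 (-2.58) and ENSCJAT00000063174.1 (-2.34) had similar log2 differences. ENSCJAT00000021598.1 showed the widest gap between the young animals, at -0.38 in PRY1 and -2.16 in PRY2, against -2.74, -4.40 and -4.40 in PRA. Without PRY1 its difference was -1.69 and that of ENSCJAT00000057498.1 -2.16, and without PRY2 that of ENSCJAT00000063174.1 was -1.75, each no longer past the criteria. The call of ENSCJAT00000063174.1 was also lost with RNA integrity as a covariate (-1.87) and with array weights, and that of ENSCJAT00000021598.1 in the methods' t-test.

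ENSCJAT00000036151.2 and ENSCJAT00000036161.2 were lower in PRA and higher in HRA than in the young animals of the same rearing. ENSCJAT00000036151.2 was at -1.32 and -2.99 in PRY and at -5.63, -4.69 and -3.55 in PRA, with a log2 difference of -2.47 and a standard error of 0.94 (limma, adjusted p = 0.187). ENSCJAT00000036161.2 had a log2 difference of -2.43 with a standard error of 0.95 (limma, adjusted p = 0.190), and their centred values differed by at most 0.57 on any array. In the hand-reared animals ENSCJAT00000036151.2 was at -6.29, -5.10 and -5.98 in HRY and at -2.06, -1.31 and -4.61 in HRA. The difference in parent-reared animals was -1.64 and -1.56 for the 2 transcripts without PRY1, -1.97 and -2.03 without PRA1 and -2.44 and -2.35 without PRA2, and none of these was past the criteria. With RNA integrity as a covariate the differences were -2.28 and -2.16 and with slide as a block -2.03 and -1.90, and both calls were lost under either, with array weights and in the methods' t-test.

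Among transcripts well above background on all 5 arrays and without overlap, the smallest p in either direction was that of ENSCJAT00000048507.1 (limma, adjusted p = 0.175). It was at -4.74 and -4.44 in the PRY animals and at -6.17, -6.73 and -6.80 in the PRA animals, a log2 difference of -1.98 with a standard error of 0.24. ENSCJAT00000045531.1 showed the narrowest groups, with -5.21 and -5.18 in PRY against -6.28, -6.33 and -6.26 in PRA, a log2 difference of -1.10. Both lie in the first identifier run, as does ENSCJAT00000047890.1 with a log2 difference of -1.35. ENSCJAT00000052236.1, with a log2 difference of -1.27, lies outside the runs. None of these 4 calls was lost without any single parent-reared animal, and all 4 were lost with normexp background correction. ENSCJAT00000045531.1 also missed the criteria with quantile normalization (-0.92) and, just under 2-fold, with slide as a block.

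By the same choice of transcripts, the smallest p-values in the other direction were those of ENSCJAT00000011466.1, ENSCJAT00000033439.2, ENSCJAT00000033282.2 and ENSCJAT00000032158.2. Their log2 differences were 1.09, 1.5, 1.0 and 1.30 with standard errors of 0.17 to 0.26. ENSCJAT00000033439.2 was at -2.36 and -1.53 in the PRY animals and at -0.71, -0.24 and -0.39 in the PRA animals, and it was the only one of the 4 past the criteria under all 19 alternatives tried. Its hand-reared values lay between, at -1.13, -1.19 and -0.98 in HRY and -1.10, -1.14 and -0.73 in HRA. ENSCJAT00000011466.1 missed the 2-fold criterion without PRY1 (0.89), and ENSCJAT00000033282.2 without PRY2 (0.82) or PRA1 (0.93). The call of ENSCJAT00000011466.1 was also lost with slide as a block (0.95) and that of ENSCJAT00000033282.2 with RNA integrity as a covariate (0.83) and array weights, and with normexp all but that of ENSCJAT00000033439.2 were lost.

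Some transcripts were measured above background in 1 stage only. On all 3 PRA arrays and on neither PRY array, 184 transcripts were well above background, and on both PRY arrays and no PRA array 172 were. Among the transcripts past the criteria, 91 higher ones were not well above background on any PRY array and 131 lower ones on no PRA array. Their fold changes are given as lower bounds, which hold for the main scaling only. The reference on each array of the lower group was the lowest signal among probes well above background. The dim probe's own signal was used where it was higher. The bound exceeded 2-fold for 29 and 73 of them.

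ENSCJAT00000042361.1 was at least 16.2-fold higher in PRA. It was at -1.77, -1.85 and -4.22 in the PRA animals, and not well above background in either PRY animal. ENSCJAT00000003972.1 was at least 15-fold higher, and ENSCJAT00000000004.1 at least 6.95-fold. The centred values of ENSCJAT00000042361.1 and ENSCJAT00000003972.1 differed by at most 0.36 on any array. In the other direction, ENSCJAT00000038098.2 was at least 8.54-fold lower in PRA, ENSCJAT00000038909.2 at least 6.36-fold and ENSCJAT00000019993.1 at least 6.08-fold. The transcripts of both directions passed the filter only through the group in which they were high. Their limma p (adjusted p = 0.175 for all) rests on low values that were not well above background. It thus gives no support to these differences. ENSCJAT00000038098.2 varied widely between the young animals, at -2.00 in PRY1 and -5.69 in PRY2, and ENSCJAT00000019993.1 was no longer past the criteria without PRY1 (-1.59). ENSCJAT00000038909.2 was at -4.79 and -3.75 in the PRY animals and not well above background in any PRA animal. In the methods' t-test the calls of ENSCJAT00000000004.1, ENSCJAT00000038098.2 and ENSCJAT00000019993.1 were lost, and with normexp background correction that of ENSCJAT00000038909.2. With normexp the log2 differences of ENSCJAT00000042361.1, ENSCJAT00000003972.1 and ENSCJAT00000000004.1 were 2.51, 2.39 and 1.46. These are smaller than their bounds of 4.02, 3.90 and 2.80 on the log2 scale.

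The hand-reared animals gave the contrast between stages in other animals, although their arrays also entered the estimate of spread behind the parent-reared calls. Here too the stages differed in technical respects. HRY1 and HRY2 were on the first slide and all HRA arrays on the second, and HRA1 and HRA2 had low RNA integrity. The part of slide and RNA integrity in the values below was not tested. Between HRA and HRY, 333 transcripts were higher (0.805%) and 326 lower (0.788%) by the same criteria, or 1.59% in either direction. An unadjusted p under 0.05 was found for 7.33% of tested transcripts, and the groups did not overlap for 12.1%. Of the 750 transcripts higher in PRA, 13 were also higher in HRA (1.73%) and 60 were lower (8%). Of the 1435 transcripts lower in PRA, 12 were also lower in HRA (0.836%) and 19 higher (1.32%). These 25 shared calls make up 3.90% of the higher and 3.68% of the lower calls in hand-reared animals. Over all tested transcripts, 1.81% were called higher and 3.47% lower in PRA, so the share of lower calls was near that of all transcripts. The shared calls include transcripts with nearly the same course, such as ENSCJAT00000008557.2 and ENSCJAT00000006732.2, and are not independent observations. Across all tested transcripts the stage differences of the 2 rearings had a Pearson correlation of -0.14 and a Spearman correlation of -0.16. Transcripts are not independent replicates, and no test was made of the correlation.

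For the transcripts higher in PRA, the median level in each hand-reared animal of both stages lay above that in both PRY animals. The transcripts of either direction were chosen by their PRY and PRA values. That choice favours a position of other groups away from PRY, so the levels below are a description only. The median level of the 750 transcripts was -4.51 in PRY1 and -3.92 in PRY2, and between -3.04 and -2.71 in the PRA animals, which is what chose them. In HRY animals it was -3.20, -3.13 and -3.01, and in HRA animals -3.58, -3.47 and -2.95. The 1435 lower transcripts had a median level of -3.06 in PRY1, -3.40 in PRY2 and between -4.69 and -4.37 in the PRA animals. In the hand-reared animals it was -3.68, -3.71 and -4.37 in HRY and -3.59, -3.47 and -4.36 in HRA, so that HRY3 and HRA3 lay near PRA and the others between. The difference between the 2 stage differences had an unadjusted p under 0.05 for 7833 transcripts (18.9%) and an adjusted p under 0.05 for none (0%, limma, smallest adjusted p = 0.205).

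Of the 25 transcripts called in the same direction in both rearings, some are given here, all named after their values were seen. The criteria in both rearings chose them, so their separation of the stages is a description and gives no further support. The hand-reared contrast of those named in this paragraph had an adjusted p of 0.338, 0.418 and 0.463 in limma, in the order given. ENSCJAT00000036350.2 was at -7.44 and -7.22 in PRY, both not well above background, and at -3.82, -4.50 and -5.02 in PRA. It passed the filter only through PRA. In hand-reared animals it was at -6.47, -6.41 and -5.52 in HRY and at -4.20, -4.05 and -3.53 in HRA, so that each of the 6 aged animals was above each of the 5 young animals. ENSCJAT00000008557.2 was at -4.11 and -4.55 in PRY and at -1.30, -2.24 and -1.95 in PRA, and at -4.47, -2.90 and -4.16 in HRY against -1.83, -1.66 and -0.85 in HRA. Its log2 difference was 2.50 with a standard error of 0.47 in parent-reared and 2.39 in hand-reared animals. ENSCJAT00000059184.1 was higher in the aged animals by 2.57 and 2.40 on the log2 scale, and was well above background in only 1 of the 2 PRY animals.

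Of the shared calls, 12 were in the other direction. They were 0.836% of the transcripts lower in PRA, near the 0.788% of all tested transcripts that were lower in HRA. ENSCJAT00000024532.2 was at -5.53 and -4.31 in PRY and at -6.69, -7.86 and -6.04 in PRA. It was well above background on only 1 of the 3 PRA arrays. In hand-reared animals HRY was at -5.52, -5.78 and -6.24, and HRA at -8.30, -7.08 and -7.46, below the lowest signal well above background on each of those arrays, so no exact fold is given. ENSCJAT00000021994.2 was well above background on all 5 parent-reared arrays, at -3.69 and -4.33 in PRY and at -4.94, -5.42 and -5.09 in PRA. Its log2 differences were -1.14 in parent-reared and -1.04 in hand-reared animals.

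**Figure D5:**
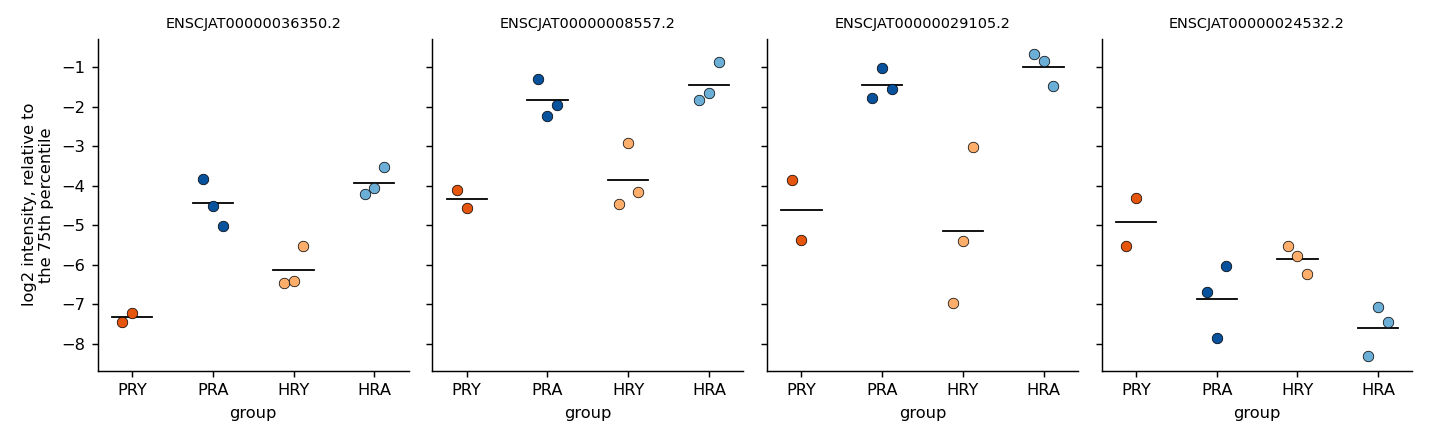
Log2 intensity relative to the 75th percentile in each animal (points) and the group mean (line) for 4 of the 25 transcripts called in the same direction in both rearings, chosen after their values were seen. ENSCJAT00000036350.2, ENSCJAT00000008557.2 and ENSCJAT00000029105.2 were higher and ENSCJAT00000024532.2 lower in both aged groups than in the young group of the same rearing.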

How the data were processed

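Hippocampus RNA of 11 marmosets was hybridized singly with Cy3 on Agilent arrays. The authors scanned the arrays with Agilent Feature Extraction 11.0.1.1, and the deposited intensity of each spot is background-subtracted and not normalized between arrays. The authors also deposited a table of scaled intensities, used as an alternative. From the deposited intensities, control spots (1319) and outlier spots were left out here, which left 29 transcripts without a usable spot on some array. Repeated spots were averaged after taking log2, and every array was scaled by subtracting its own 75th percentile. PRA minus PRY was tested with limma 3.58.1 in R 4.3.3 over 4 group means and all 11 arrays. The same fit was also run on data simulated from the measured means and spreads. A call required a change of more than 2-fold, as in the study, and p under 0.05 before adjustment. Benjamini-Hochberg adjustment ran over all 41349 tested transcripts. Precision is limited by the number of animals.

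Named were, past the criteria, without overlap and well above background on all 5 arrays, the 8 largest differences and the 4 smallest p in each direction, and the 3 largest lower bounds in each direction. Other transcripts are named as chosen after their values were seen. The comparison, the rule and the lists were chosen with earlier results of these data known. Alternatives were normexp (offset 50, on median spot intensities), quantile normalization, the deposited table, no filter or all 5 arrays well above background, only the 5 arrays, only slide 2, the methods' t-test, slide or replicate number as a block, RNA integrity as a covariate, array weights, each animal left out, and 2 alternatives chosen after seeing the data. The methods' t-test is Student's t-test, which the study names for its PCR and methylation data and not expressly for the arrays. Marker lists were not analysed here, since the identifiers were matched to no symbols.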

Additional observations from a re-analysis of the deposited data

Results flagged for a closer look

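For 5 of the named transcripts the stage difference ran in opposite directions in the 2 rearings, with no overlap between the stages in either rearing. The difference of the stage differences (PRA minus PRY, less HRA minus HRY, on the log2 scale in limma) was 7.28 for ENSCJAT00000012216.2, 7.32 for ENSCJAT00000012224.1, -5.60 for ENSCJAT00000036151.2, -5.25 for ENSCJAT00000036161.2 and -1.61 for ENSCJAT00000052236.1. Each had an unadjusted p under the criterion in limma, the largest being 0.00222, and an adjusted p of 0.205. Of all tested transcripts, 18.9% had such an unadjusted p, and 12.1% had no overlap between the hand-reared stages. The transcripts were named for their PRA minus PRY difference, which is part of this contrast, so these p-values give no separate support. Within the first 2 and within the next 2 the values ran closely alike, so the 5 are not independent observations. ENSCJAT00000012216.2 and ENSCJAT00000012224.1 were higher in PRA by 2.74 each and lower in HRA, with log2 differences of -4.53 and -4.58. ENSCJAT00000036151.2 and ENSCJAT00000036161.2 had log2 differences of -2.47 and -2.43 in PRA and of 3.13 and 2.82 in HRA. ENSCJAT00000052236.1 had -1.27 in PRA and 0.34 in HRA, where the stages did not overlap although the difference missed the criteria.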

How the results depend on the processing

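The precision rests on 2 young and 3 aged animals, and slide and RNA integrity could be separated from stage only in part. Of 560 values of the 30 named transcripts under 19 alternatives, 479 stayed past the criteria, 81 did not and 0 changed sign. Counts moved by over 1.5 times in these cases. With normexp, 264 transcripts were higher and 567 lower, and with the methods' t-test 344 and 850. On slide 2 alone, 1147 were higher and 7 had an adjusted p under 0.05. Slide as a block gave 871 lower, RNA integrity 1522 higher, array weights 433 higher, and the 2 identifier runs left out 828 lower (chosen after seeing the data). The difference between rearings had an unadjusted p under 0.05 for 13037 transcripts without a filter on dim probes and 4822 with RNA integrity. The replicate block gave 795 higher, 1446 lower and 4124 with an unadjusted p under 0.05. Correlations between same-numbered deviations were 0.12 and -0.06. They can neither show nor exclude a pairing, since the deviations of 2 young animals from their mean are always opposite. With each animal left out in turn, higher transcripts ranged from 617 to 2300, lower from 950 to 3062, unadjusted p under 0.05 from 5223 to 12304, adjusted p under 0.05 from 0 to 2730, and the difference between rearings from 5143 to 9764. The adjusted calls came without PRY2. The causes were not tested.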

Other observations

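On slide 2 alone, PRY2 is the only young parent-reared animal and HRY3 the only young hand-reared one. The spread in that fit thus came from the aged arrays only, and its p cannot measure variation between young animals. The transcripts below, named after their values were seen, were higher in PRA than in PRY2 by 2.71 to 5.65 on the log2 scale. ENSCJAT00000052781.1 was at -8.17 in PRY2, where it was not well above background, and at -2.11 in PRY1 on the other slide. In the 3 PRA animals it was between -2.68 and -2.36. In the hand-reared animals it was at -7.54, -3.61 and -6.31 in HRY and between -2.49 and -2.12 in HRA, so that the young animals other than PRY1 lay below every aged animal. ENSCJAT00000005294.2 and ENSCJAT00000053044.1 showed the same pattern, with -8.16 and -7.18 in PRY2 and -2.06 and -2.15 in PRY1. Both were again not well above background in PRY2, the sample of lowest RNA integrity, so the sizes of these differences are not exact. ENSCJAT00000063022.1 and ENSCJAT00000014890.3 were past the criteria over all arrays as well. For ENSCJAT00000014890.3 that call came from PRY2, at -6.41. PRY1, at -3.69, lay inside the range of the PRA animals (-3.72, -3.58 and -3.79). Its PRA mean differed by -0.01 from PRY1 and by 2.71 from PRY2. ENSCJAT00000063022.1 was at -6.94 in PRY1, -8.82 in PRY2 and -5.88, -5.40 and -5.79 in the PRA animals. It was not well above background in either PRY animal, and the lower bound of its fold change was 1.92.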
